A study of Mus musculus with 4 samples.

Results

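Within the L2/3-Calb1 subtype of excitatory neurons in the mouse ventromedial prefrontal cortex (vmPFC), neurons carrying many transcripts of a retrograde viral barcode were compared with neurons carrying none. Members were the cells that the deposited metadata labelled L2/3-Calb1 in the 3 unsorted libraries. They were split by the unique molecular identifiers (UMIs, each counting 1 captured transcript) of the feature named barcode. The 82 cells with 5 or more barcode UMIs were called barcode-high and the 165 cells with 0 were called barcode-zero, 247 of the 317 unsorted L2/3-Calb1 neurons. The other 70 cells had 1 to 4 barcode UMIs and were called barcode-low. The subtype had 357 cells in all among 9368 excitatory neurons with a label.

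In the study, male C57BL/6 mice of 8 weeks received rAAV2-retro viruses in 5 targets on 1 side of the brain. These were AI (agranular insular cortex), DMS (the dorsomedial part of the striatum), BLA (the basolateral complex of the amygdala), MD (the mediodorsal nucleus of the thalamus) and LH (the lateral hypothalamic area). Each target received a virus whose EGFP transcript, driven by a short CAG promoter, ended in its own barcode. The prelimbic and infralimbic cortex were later dissociated with papain and profiled by 10x Chromium 3' single-cell RNA sequencing. The 3 unsorted libraries carry the titles of 3 separate mice, and 1 further library held EGFP-positive cells sorted from 3 pooled mice. Barcode-high, barcode-low and barcode-zero cells thus came from the same injected animals and shared all handling, including the glutamate receptor blockers CNQX and D-AP5 in the slice bath before the enzyme step.

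Layer 2/3 excitatory neurons are intratelencephalic cells, whose axons reach other parts of the cortex, the striatum and the amygdala. Calb1, which names the subtype, encodes the calcium buffer calbindin. An rAAV2-retro particle enters at the axon terminal and travels back to the soma, so a neuron can be labelled only where its axon and the virus met. Immediate early genes are switched on within minutes of synaptic activity or other stimuli without new protein synthesis. Many encode transcription factors of the Fos, Jun, Egr and Nr4a families, and others encode synaptic or signalling proteins such as Arc and Dusp1.

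The barcode counts, which chose the members, were of the same order in the 3 libraries. Unsorted mouse 1 gave 29 barcode-high, 27 barcode-low and 55 barcode-zero cells. Unsorted mouse 2 gave 25, 19 and 60, and unsorted mouse 3 gave 28, 24 and 50. The median barcode-high cell had 10, 12 and 11 barcode UMIs in mice 1, 2 and 3, and the highest cells had 89, 147 and 84. Near the limit, 11 cells had 4 barcode UMIs and 12 cells had 5. At least 5 barcode UMIs were found in 26.1%, 24.0% and 27.5% of the L2/3-Calb1 neurons of the 3 mice. The same share was 66.7%, 60.6% and 70.6% in L2/3-Rorb neurons and 28.5%, 27.1% and 27.2% in L6-Syt6 neurons.

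**Figure D1:**
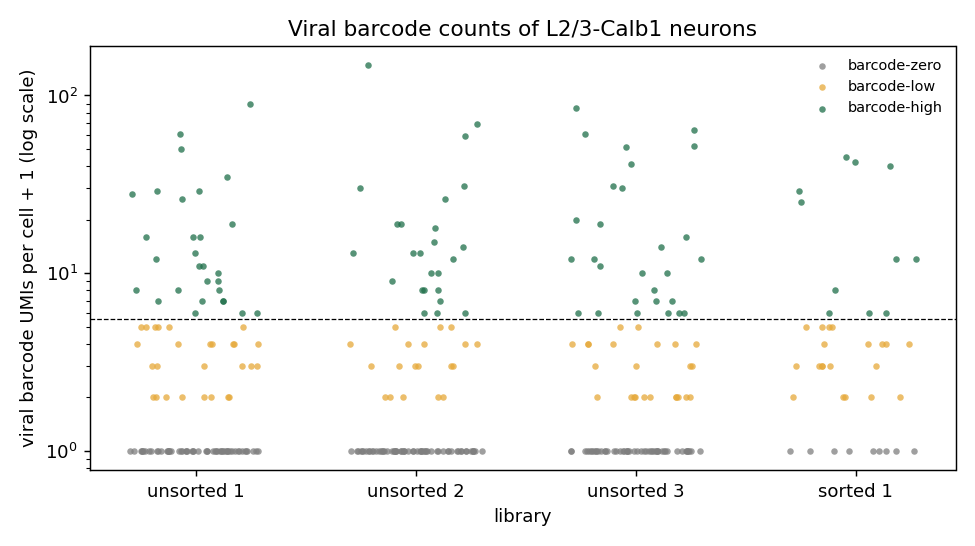
Barcode UMIs plus 1, on a log scale, of each L2/3-Calb1 neuron in the 3 unsorted libraries and the sorted library, with a dashed line at the limit of 5 UMIs. In the unsorted libraries 165 cells lay at 0, 70 between 1 and 4 and 82 at or above the limit, with no gap between 4 UMIs (11 cells) and 5 UMIs (12 cells).

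Free barcode RNA in the droplets was gauged from cells with at least 10 UMIs of the C1q complement genes, which microglia express, with no Slc17a7 UMI and no label in the metadata. At least 1 barcode UMI was found in 39 of 1194 such cells of mouse 1 (3.27%, 95% Wilson interval 2.40 to 4.43%), 32 of 1105 of mouse 2 (2.90%, 2.06 to 4.06%) and 46 of 1058 of mouse 3 (4.35%, 3.28 to 5.75%). At least 5 were found in 2, 1 and 0 of them, and the 0 allows a share of up to 0.362% in mouse 3. These cells were shallower, with medians of 3876, 3848 and 4067.5 UMIs, and intervals and limits cover counting error only. At least 1 barcode UMI was found in 50.5%, 42.3% and 51.0% of the L2/3-Calb1 neurons. A barcode-zero cell held no barcode UMI at its depth, which does not show that it was free of virus.

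The L2/3-Calb1 label was checked against its markers in the 6 sums of the main comparison. Counts were summed over the cells of each class within each library, and levels are given as CPM, the gene's count scaled to a fixed total of UMIs in that sum. The vesicular glutamate transporter Slc17a7 lay between 703 and 815 CPM over the 6 sums, Cux2, an upper-layer transcription factor, between 124 and 209 CPM, and Calb1 between 264 and 366 CPM. Barcode-zero L2/3-Rorb neurons had 32.9 to 43.4 CPM of Calb1 and barcode-zero L6-Syt6 neurons 1.54 to 3.26 CPM. The GABA-synthesis genes Gad1 and Gad2 were at 3.29 CPM or less. Rorb lay at 3.26 to 5.49 CPM in barcode-high and 8.03 to 13.7 CPM in barcode-zero cells, against 156 to 195 CPM in barcode-zero L2/3-Rorb neurons, and was too low to be tested. Deep-layer markers were uneven: in mouse 2 Foxp2, Fezf2 and Tle4 were at 36.6, 12.8 and 34.8 CPM in barcode-high against 0, 1.71 and 13.7 CPM in barcode-zero cells. In mouse 3 Fezf2 and Tle4 were the other way round, at 4.89 and 8.16 against 13 and 31.1 CPM. The deep-layer markers Bcl11b and Htr2c were lower in barcode-high than in barcode-zero cells in each mouse, mouse 2 included. The summed level of the 28 non-neuronal markers was 84.2 to 126 CPM in barcode-high and 91.7 to 129 CPM in barcode-zero cells.

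The unsorted libraries held 83039497 to 87809114 UMIs over 7243 to 8040 cell barcodes, and the 6 sums held 546262 to 1167436 UMIs. No cell barcode was shared between libraries among L2/3-Calb1 neurons, and 5 to 30 were shared by pairs of libraries over all cells. The median barcode-high cell had 18851, 20339 and 21636.5 UMIs in mice 1, 2 and 3, and the median barcode-zero cell 16854, 19125 and 18953.5. The barcode-high median was thus higher in 3 of 3 mice, by 1965 ± 735 UMIs (SD, n = 3; exact two-sided sign-flip test, p = 0.25, the smallest that 3 mice can give). The median share of mitochondrial UMIs was 6.82%, 6.64% and 6.91% in barcode-high against 7.26%, 7.12% and 6.94% in barcode-zero cells, again with p = 0.25 by the exact test.

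Barcode-high neurons had higher levels of 5 of 16 tested immediate early genes, led by Egr4, of 2 of 18 tested late activity-regulated effectors and of the postsynaptic protein gene Nrgn, and lower levels of Nnat and Lypd1. Across 8340 tested genes, 13 were called higher and 2 lower in barcode-high cells. A gene was called at an adjusted p under 0.05 (edgeR quasi-likelihood test with the mouse as a block, Benjamini-Hochberg adjustment) where its log2 fold change also reached 0.5 in size. The 15 called genes were 0.18% of those tested, 0.156% called higher and 0.024% called lower, and the median log2 fold change over all tested genes was 0.0004. An unadjusted p under 0.05 was reached by 473 genes (5.67%). The edgeR p-values rest on 3 mice and on a spread per gene that is moderated by the spread of all tested genes. In summed counts a smaller share of cells expressing a gene cannot be told apart from less RNA per cell. With DESeq2's test in place of edgeR's, 2 genes were called (Egr4 and Nrgn).

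Of the 13 genes called higher, 5 were on the list of immediate early genes (Egr4, Ier2, Egr2, Dusp1 and Arc) and 2 on the list of late activity-regulated effectors (Gadd45b and Dusp6). The other calls were Arl4d and Gadd45g, then Nrgn, Gfra2, 3110035E14Rik and R3hdm1.

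Egr4, which encodes a zinc-finger transcription factor (6:85511121-85513589, minus strand, coordinates in GRCm38), was at 302, 223 and 284 CPM in the barcode-high cells of mice 1, 2 and 3. In barcode-zero cells it was at 71.2, 64.2 and 137 CPM. The groups did not overlap, and the log2 fold change was 1.59 ± 0.15 (SE), with an adjusted p of 4.71e-08. Barcode-low cells were in between in mice 1 and 3, at 134 and 212 CPM, and at 50.0 CPM in mouse 2.

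Ier2, an immediate early gene of the nucleus (8:84661331-84662852), was at 59.0, 89.7 and 73.4 CPM in barcode-high and at 19.7, 25.7 and 43.1 CPM in barcode-zero cells. Its log2 fold change was 1.33 ± 0.21 (adjusted p = 0.000855). Egr2, a transcription factor of the same family as Egr4, was at 60.8, 29.3 and 81.6 against 18.6, 24.0 and 34.1 CPM. It was higher within each mouse, but the barcode-high value of mouse 2 lay below the barcode-zero value of mouse 3, so the groups overlapped (log2 fold change 1.13 ± 0.24, adjusted p = 0.0233). Arc, whose protein regulates glutamate receptor trafficking at synapses, was at 85.8, 156 and 122 against 53.7, 50.5 and 90.3 CPM. Its groups overlapped too (log2 fold change 0.92 ± 0.18, adjusted p = 0.0155).

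Dusp1 and Dusp6 encode phosphatases that switch off MAP kinases. Dusp1 was at 120, 103 and 135 CPM in barcode-high and at 37.2, 54.0 and 84.3 CPM in barcode-zero cells. Dusp6 was at 84.0, 53.1 and 63.6 against 26.3, 30.0 and 42.1 CPM. Neither gene's groups overlapped, and the log2 fold changes were 1.03 ± 0.17 (adjusted p = 0.00161) and 1.01 ± 0.21 (adjusted p = 0.0268). The annotated Dusp1 gene overlaps other annotated genes on both strands, so its count may include reads of those.

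Gadd45g and Gadd45b belong to a family of stress- and activity-induced proteins with roles in signalling and DNA demethylation. Gadd45g was at 227, 201 and 155 CPM in barcode-high and at 87.6, 69.4 and 117 CPM in barcode-zero cells (log2 fold change 1.09 ± 0.16, adjusted p = 0.000213). Gadd45b was at 66.1, 62.2 and 79.9 against 30.7, 30.0 and 42.1 CPM (log2 fold change 1.02 ± 0.19, adjusted p = 0.00959). Arl4d, a small GTPase of the ARF family (11:101665541-101667832, plus strand), was at 69.7, 86.0 and 93 against 21.9, 20.6 and 52.2 CPM, a log2 fold change of 1.42 ± 0.21 (adjusted p = 0.000339). In all 3 genes every barcode-high value lay above every barcode-zero value.

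**Figure D2:**
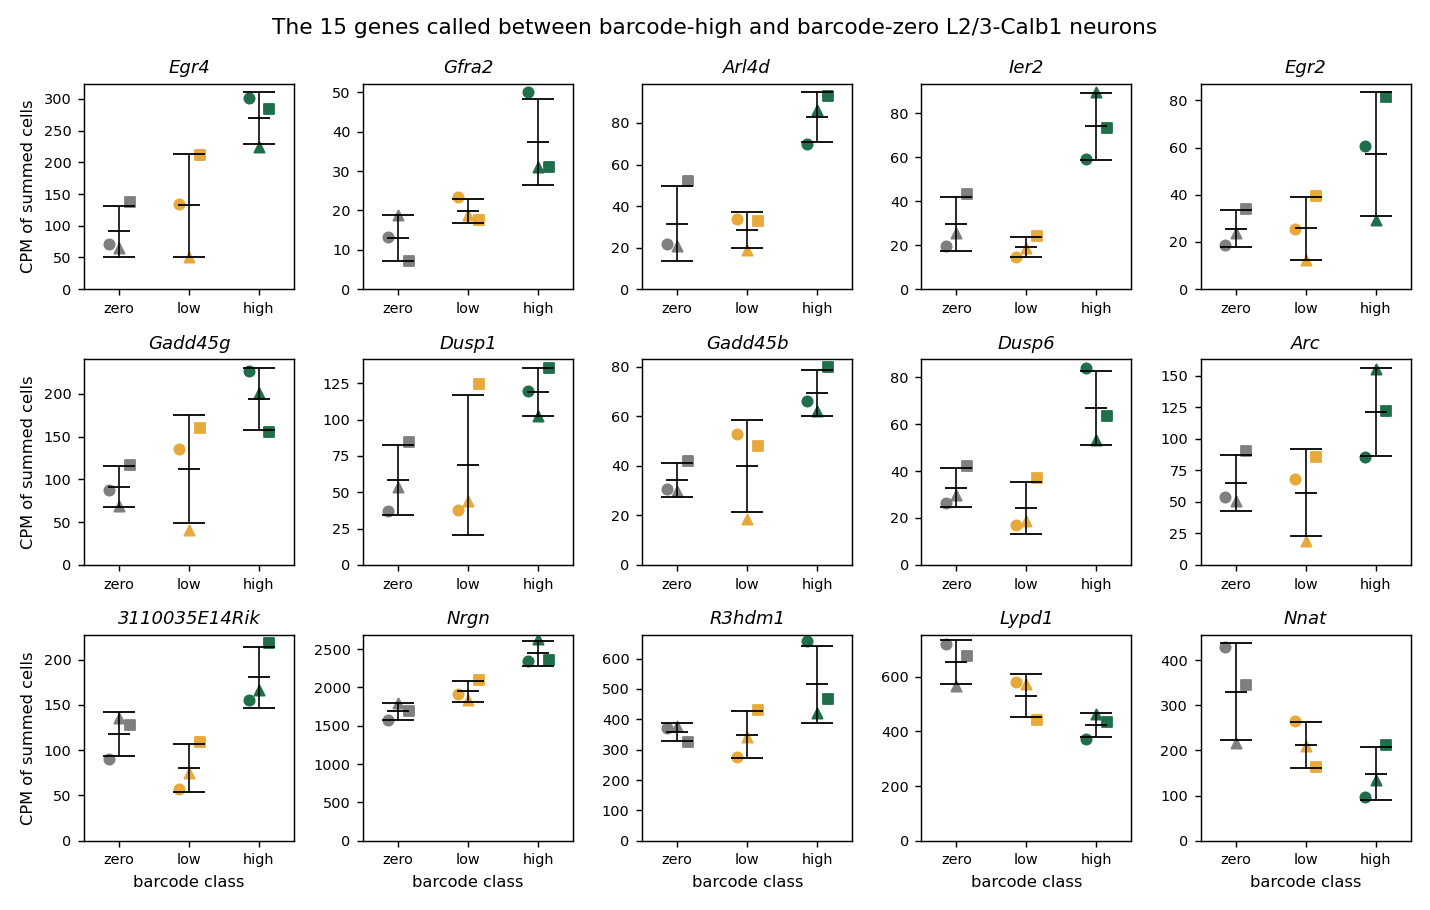
CPM of called genes in barcode-zero, barcode-low and barcode-high L2/3-Calb1 neurons. Circles, triangles and squares are unsorted mice 1, 2 and 3, and bars are the mean ± SD of the 3. Egr4 averaged 270 CPM in barcode-high and 91.0 CPM in barcode-zero cells, whereas Nnat averaged 148 and 330 CPM.

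Promoter windows are shown for Egr4, the gene of lowest p, and for Arl4d and Dusp1, because these windows hold the core TGACG of the cAMP response element (CRE), a motif bound by the activity-regulated factor CREB. Windows are from RefSeq (GRCm38.p6) and run from 250 bases before to 50 bases after the annotated start, 5′ to 3′ on the gene's strand. Capitals mark TGACGTCA, the full CRE, and TGACG on either strand (CGTCA when read on the printed strand). The Egr4 window is 6:85513540-85513839 on the minus strand, that of Arl4d is 11:101665291-101665590 on the plus strand, and that of Dusp1 is 17:26508423-26508722 on the minus strand, at a RefSeq start 53656 bases inside the longer gene annotated by GENCODE.
Egr4: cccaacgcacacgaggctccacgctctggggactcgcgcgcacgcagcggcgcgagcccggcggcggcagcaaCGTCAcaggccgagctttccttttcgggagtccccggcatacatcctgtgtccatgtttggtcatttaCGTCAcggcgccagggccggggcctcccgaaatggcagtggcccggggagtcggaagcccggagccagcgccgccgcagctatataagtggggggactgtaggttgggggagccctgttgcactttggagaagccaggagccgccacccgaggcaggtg
Arl4d: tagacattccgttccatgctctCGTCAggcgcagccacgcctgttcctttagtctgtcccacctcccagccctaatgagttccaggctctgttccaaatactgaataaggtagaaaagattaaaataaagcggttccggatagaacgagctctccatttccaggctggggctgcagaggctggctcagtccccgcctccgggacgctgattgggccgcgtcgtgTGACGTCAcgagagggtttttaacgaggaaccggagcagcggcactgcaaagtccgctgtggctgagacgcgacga
Dusp1: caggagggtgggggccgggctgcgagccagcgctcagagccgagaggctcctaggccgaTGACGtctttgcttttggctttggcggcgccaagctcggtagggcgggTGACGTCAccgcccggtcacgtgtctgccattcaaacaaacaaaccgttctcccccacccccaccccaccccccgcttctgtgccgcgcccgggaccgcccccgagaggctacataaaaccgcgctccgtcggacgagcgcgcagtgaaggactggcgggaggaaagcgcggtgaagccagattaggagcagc

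The table of windows had entries for 9 of the 13 genes called higher and for both genes called lower. Ier2, Arc, Gfra2 and 3110035E14Rik were not matched. The full CRE was in the windows of 2 of the 9, Arl4d and Dusp1, and the TGACG core, which every full CRE also holds, was in 4 of the 9 (Arl4d, Dusp1, Egr4 and R3hdm1). Neither motif was in the window used for Nnat or Lypd1. Of all 32851 windows in the table, 1.79% held the full CRE and 20.8% the core. Of the 8553 windows of tested genes, these shares were 3.44% and 33.5%. Some genes have several windows, and only the window nearest the GENCODE start was taken above. Over all their windows, the count that matches these shares, the core was in 7 of 14 windows of genes called higher and in 1 of 4 of genes called lower, and the full CRE in 2 of 14 and 0 of 4. The EGR core motif GCGTGGGCG was in none of the windows of the called genes and in 0.612% of all windows. A match describes the letters only.

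Of the 17 listed immediate early genes, 16 were expressed highly enough to be tested, 15 had a higher level in barcode-high cells, 5 were called and 12 had an unadjusted p under 0.05. Their median log2 fold change was 0.55, against 0.0004 over all tested genes, of which 5.67% had an unadjusted p under 0.05. Among members that were not called, Npas4, a neuron-specific activity-dependent transcription factor, had a log2 fold change of 0.79 ± 0.18 (adjusted p = 0.0633) and Fos 0.53 ± 0.13 (adjusted p = 0.0831). Egr3 was at 0.43 ± 0.10 (adjusted p = 0.0668). Egr1, Fosb and Jun had log2 fold changes of 0.13, 0.11 and -0.03, so its members differed in size of change. The summed level of the list was 4203, 3983 and 3589 CPM in barcode-high against 2871, 2541 and 3365 CPM in barcode-zero cells. The median ratio within a mouse was 0.88, 0.63 and 0.20 on the log2 scale, smallest in mouse 3.

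Of 19 listed late activity-regulated effectors, 18 were tested, 13 had a higher level and 2 were called (Gadd45b and Dusp6), with a median log2 fold change of 0.27. Nrn1, encoding the neurite-promoting protein neuritin, was at 470, 383 and 395 CPM in barcode-high and at 287, 339 and 263 CPM in barcode-zero cells. Its log2 fold change of 0.49 ± 0.11 missed the limit of 0.5 at an adjusted p of 0.0273. Bdnf, the activity-dependent neurotrophin, was not called (log2 fold change 0.60 ± 0.17, adjusted p = 0.312). When barcode-zero cells were matched to barcode-high cells on total UMIs, in 25 to 29 cells of each class per mouse, the median of the effector list was -0.004, with 7 of 17 tested members higher. With all cells thinned to 10000 UMIs it was 0.29, with 12 of 15 higher and 1 called. Without mouse 1, 2 or 3 it was 0.25, 0.29 and 0.18. Without cells that held 3 or more UMIs of non-neuronal markers it was 0.14, with 12 of 16 higher and 0 called.

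Immediate early gene UMIs were unevenly spread over the cells. Barcode-high cells of mice 1, 2 and 3 spent a median of 0.283%, 0.295% and 0.184% of their UMIs on the listed genes, and barcode-zero cells 0.235%, 0.174% and 0.219%. The median was thus higher in 2 of 3 mice (exact sign-flip test, p = 0.5). The mean was higher in 3 of 3 mice, at 0.404%, 0.393% and 0.331% against 0.288%, 0.246% and 0.311% (exact p = 0.25, the smallest possible). For Egr4, 1 barcode-high cell held 60 of the 465 UMIs of its class, and 67.1% of barcode-high cells had at least 1 UMI against 51.5% of barcode-zero cells, which were shallower.

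**Figure D3:**
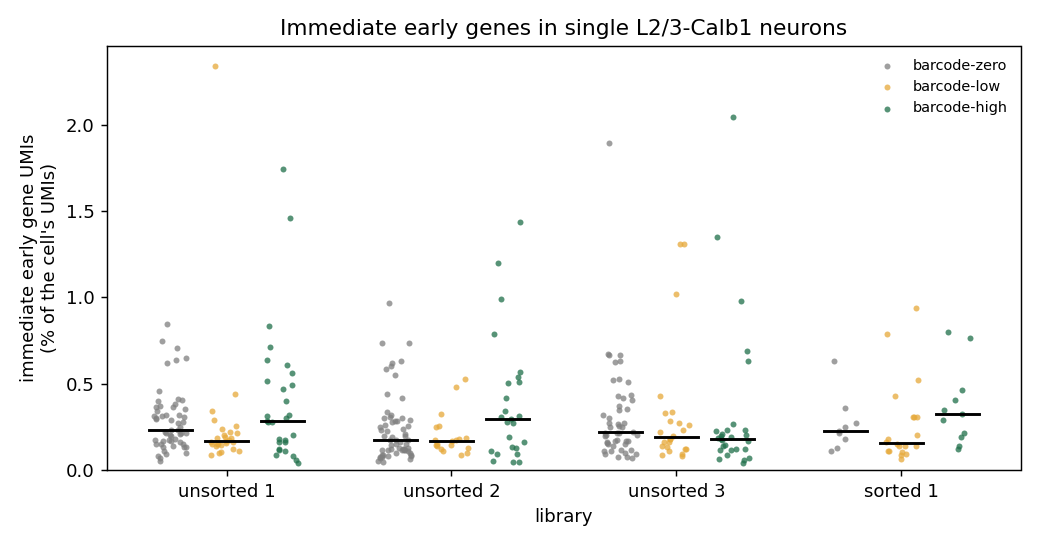
Percent of each L2/3-Calb1 neuron's UMIs from the 17 listed immediate early genes, by barcode class and library, with a black bar at the median. In unsorted mice 1 and 2 the barcode-high median (0.283% and 0.295%) lay above the barcode-zero median (0.235% and 0.174%), and in mouse 3 below it (0.184% against 0.219%).

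The calls of these genes were lost without the cells at the top of that distribution. Leaving out the 10% of cells with the most immediate early gene UMIs in each sum, an alternative added after seeing the data, removed 3 barcode-high cells per mouse and 5 or 6 barcode-zero cells. The removed cells held 35.8%, 35.5% and 53% of the list's UMIs in barcode-high and 27.6%, 31.0% and 37.1% in barcode-zero cells. The setting removes cells by the outcome itself and took a larger share of these UMIs from barcode-high cells, so a smaller difference is built into it. Without them 3 genes were called (Nrgn, Nnat and Lypd1) and none of the immediate early list. The median of the list was then 0.33, with 14 of 16 tested members higher. Egr4 kept a log2 fold change of 1.02 (adjusted p = 0.123), while Gadd45g and Dusp1 were at 0.34 and 0.35.

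Matching on depth also changed the calls. In the comparison matched on total UMIs, with 25 to 29 cells of each class per mouse, 6 genes were called (Egr4, Arl4d, Ier2, Gadd45g, Dusp1 and Nnat). After each cell was thinned to 10000 UMIs, 15 genes were called, 10 of them shared with the main comparison. Without cells that held 3 or more UMIs of non-neuronal markers, 7 genes were called and the log2 fold change of Ier2 was 0.21. Without mouse 1, 2 or 3 there were 18, 12 and 26 called genes, of which 9, 8 and 12 were among the 15. Without mouse 2 Arl4d, Ier2, Gadd45g, Dusp1, Gadd45b, Dusp6 and Arc were not called. Their log2 fold changes were then 1.13, 1.07, 0.88, 1.07, 1.00, 1.09 and 0.53, in this order. Egr4 and Nnat were each called in 17 of 18 alternatives, and none of the 15 genes changed sign in any of them.

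Nrgn, which encodes neurogranin, a postsynaptic calmodulin-binding protein, was the most abundant called gene. It was at 2345, 2629 and 2356 CPM in barcode-high and at 1575, 1803 and 1689 CPM in barcode-zero cells (9:37544492-37552904, minus strand). The log2 fold change was 0.54 ± 0.07 (adjusted p = 4.14e-05), with no overlap between groups. Barcode-low cells lay between both classes in each mouse, at 1914, 1831 and 2097 CPM. Every cell of both classes held Nrgn UMIs, and the largest share of any cell was 256 of 4192 UMIs in barcode-high cells. Without the cells highest in immediate early genes its log2 fold change was 0.60 (adjusted p = 3.23e-05).

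The other 3 called genes were Gfra2, 3110035E14Rik and R3hdm1. Gfra2, the co-receptor for the growth factor neurturin, was at 50.0, 31.1 and 31.0 CPM in barcode-high and at 13.1, 18.8 and 7.02 CPM in barcode-zero cells (log2 fold change 1.5 ± 0.31, adjusted p = 0.0219). Gfra2 UMIs were in 42.7% of barcode-high and 17.6% of barcode-zero cells. The gene 3110035E14Rik was at 155, 167 and 219 against 89.8, 135 and 127 CPM, a log2 fold change of 0.62 ± 0.13 (adjusted p = 0.0273). R3hdm1, a gene for an R3H-domain protein named here after its values were seen, was at 658, 419 and 468 against 371, 379 and 325 CPM (log2 fold change 0.51 ± 0.10, adjusted p = 0.0219). None of these overlapped between groups, and without mouse 1 none of them was called.

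Nnat and Lypd1 were the genes called lower. Nnat, an imprinted gene for the membrane proteolipid neuronatin (2:157560078-157562522, plus strand), was at 96.5, 135 and 212 CPM in barcode-high cells. It was at 429, 216 and 346 CPM in barcode-zero cells, without overlap, and its log2 level fell by 1.13 ± 0.16 (adjusted p = 0.000213). Nnat UMIs were found in 40.2% of barcode-high and 69.7% of barcode-zero cells, although the former were deeper. Barcode-low cells had 265, 209 and 164 CPM. Without mouse 1 the log2 fold change was -0.68 and the gene was still called, whereas without mouse 3 it was -1.42. Blcap overlaps Nnat on the other strand.

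Lypd1, encoding a membrane-anchored protein that modulates nicotinic acetylcholine receptors, was at 373, 463 and 432 CPM in barcode-high and at 721, 566 and 675 CPM in barcode-zero cells. Its log2 level fell by 0.62 ± 0.10 (adjusted p = 0.000931), also without overlap, and without mouse 1 it was not called (log2 fold change -0.46). Lypd1 UMIs were found in 93.9% of barcode-high and 91.5% of barcode-zero cells. The next genes in order of p with a lower level in each mouse were not called: Chgb, for a secretory granule protein (log2 fold change -0.47 ± 0.10, adjusted p = 0.0273), Wscd1 (-0.83 ± 0.21, adjusted p = 0.136) and Alcam, for a cell adhesion molecule (-0.36 ± 0.09, adjusted p = 0.136).

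Taking only cells with 10 or more barcode UMIs gave larger differences. With barcode-high cells taken at 1, 3, 5 or 10 and more barcode UMIs, 4, 6, 15 and 42 genes were called. The median of the immediate early list was 0.38, 0.31, 0.55 and 1.11 at these limits. At 10 or more UMIs Egr4, Arl4d and Ier2 had log2 fold changes of 2.08, 2.09 and 1.99, Nrgn 0.70 and Nnat -1.59, and all 15 genes of the main comparison were among the 42. These settings share cells and barcode-zero groups, so they are not independent of each other.

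Barcode-low cells, set against the same barcode-zero cells, had 2 called genes of 8193 tested (0.0244%), both lower. Nnat had a log2 fold change of -0.65 ± 0.13 (adjusted p = 0.0240). Pcp4, encoding a small calmodulin-binding protein, was at 19.1, 15.6 and 26.2 CPM in barcode-low and at 19.7, 30.0 and 143 CPM in barcode-zero cells (log2 fold change -1.65 ± 0.30, adjusted p = 0.0213). A cell of mouse 3 held 81 of the 196 barcode-zero UMIs of Pcp4, and no fit was made without that cell. Without mouse 3 no gene was called. DESeq2 called 0 genes in this comparison, with 20 at an unadjusted p under 0.05 against 408 in edgeR. Egr4 had a log2 fold change of 0.55 ± 0.17 (adjusted p = 0.674) and the median of the immediate early list was -0.15. Of the 13 genes called higher in barcode-high cells, 7 had a higher level in barcode-low cells than in barcode-zero cells. Over all tested genes 4145 of 8193 did, a similar share. The 13 were chosen against the same barcode-zero cells.

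The sorted library gave a look at cells not used above, with 11 barcode-high, 20 barcode-low and 9 barcode-zero L2/3-Calb1 neurons. It was 1 library, so no test was made, and exact Poisson intervals cover counting error only. All 13 genes called higher had a higher CPM in its barcode-high cells. Egr4 was at 144 CPM (107 to 190) in barcode-high and 32.9 CPM (13.2 to 67.8) in barcode-zero cells, and Arc at 153 CPM (114 to 200) and 32.9 CPM (13.2 to 67.8). Nrgn was at 1714 CPM (1577 to 1859) and 1251 CPM (1105 to 1411). For Gadd45g (112 and 94.1 CPM) and Gadd45b (14.7 and 9.41 CPM) the intervals overlapped. Nnat was at 61.7 CPM (38.2 to 94.4) and 89.4 CPM (53.8 to 140), and Lypd1, at 735 CPM (647 to 832) and 644 CPM (541 to 762), was not lower.

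None of the other lists held a called gene, and the medians of those with more than 3 tested members lay between -0.07 and 0.19. Since 0.18% of all tested genes were called, the absence of a call in lists of this size says little about them. Of 23 upper-layer identity genes, 20 were tested, with a median log2 fold change of -0.02. Calb1 was at 0.02, Mef2c at 0.07 and Nptx1 at -0.01. Of 26 deep-layer identity genes, 12 were tested, with a median of 0.14, and Foxp1 was at 0.20, Nfib at 0.09 and Tbr1 at 0.22. Without mouse 2 this median was -0.08 and without mouse 3 it was 0.24. Of the 12, 8 were higher and 4 lower. The lower ones included Bcl11b (-0.63 ± 0.24, adjusted p = 0.669) and Htr2c (-0.69 ± 0.38, adjusted p = 0.871). Foxp2, a layer 6 transcription factor, was at 0, 36.6 and 14.7 CPM in barcode-high and 0, 0 and 14.0 CPM in barcode-zero cells, so its fitted value of 1.92 ± 0.65 (adjusted p = 0.560) rested on mouse 2. Rprm, the member of lowest p and named after its values were seen, was at 1.26 ± 0.35 (adjusted p = 0.256). Of 13 genes that the study names for projections, a list chosen on these samples, 7 were tested, with a median of 0.16, and without mouse 1 the median was 0.85 over 9 tested genes with 1 called. Of these 7 genes, 3 had an unadjusted p under 0.05: Foxp2, Rprm and, named after its values were seen, Igfbp4 (0.91 ± 0.27, adjusted p = 0.341).

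Lists tied to infection or injury held no called gene, where 0.18% of all tested genes were called. Of 22 interferon-response and antigen-presentation genes, 1 passed the filter, B2m, with a log2 fold change of 0.15, and the summed level of the list was 69.7 to 86.5 CPM in barcode-high and 78.8 to 96.3 CPM in barcode-zero cells. Of 16 DNA damage and p53 target genes, 10 were tested, with a median of 0.02. Btg2, which is also on the immediate early list, was at 0.56 (adjusted p = 0.0831) and the apoptosis gene Bax at 0.07. The 18 tested endoplasmic reticulum stress genes had a median of 0.03, with the chaperones Canx, Calr and Hsp90b1 at 0.02, -0.07 and -0.07. The 10 tested heat shock genes had a median of 0.05, with Hsp90aa1 at 0.06 and Hspa8 at 0.05. The 19 tested host factors of adeno-associated virus entry had a median of 0.19, and Rpsa was at -0.11, Vps29 at -0.06 and Atp2c1 at 0.08.

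Lists of neuronal function held no called gene either. Medians were -0.07 for 28 axon guidance genes, 0.02 for 26 genes of axonal transport and the cytoskeleton, 0.01 for 34 potassium channels and 0.01 for 25 sodium, calcium and HCN channels. They were 0.04 for 22 ionotropic glutamate receptor genes, 0.005 for 13 GABA-A receptor subunits and 0.04 for 24 presynaptic genes. Snap25, a core release protein, was at 0.09, the AMPA receptor gene Gria2 at -0.01 and the potassium channel gene Kcnma1 at 0.22. The cadherin and protocadherin list had a median of -0.04 over 20 genes. Of these, 5 had an unadjusted p under 0.05 (25%, against 5.67% of all tested genes). Neuropeptide genes had a median of -0.06 over 8 genes, with Cck at 0.14 and Grp at -0.40 (adjusted p = 0.311). The 13 mitochondrially encoded genes had a median of -0.04. Of the marker lists of other cells, 3 of 28 non-neuronal genes were tested (Mbp 0.34 and Slc1a3 -0.52 among them) and 1 of 15 inhibitory neuron genes (Lamp5, -0.25). Lamp5 is also on the upper-layer list, so its value does not read inhibitory neurons alone.

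**Figure D4:**
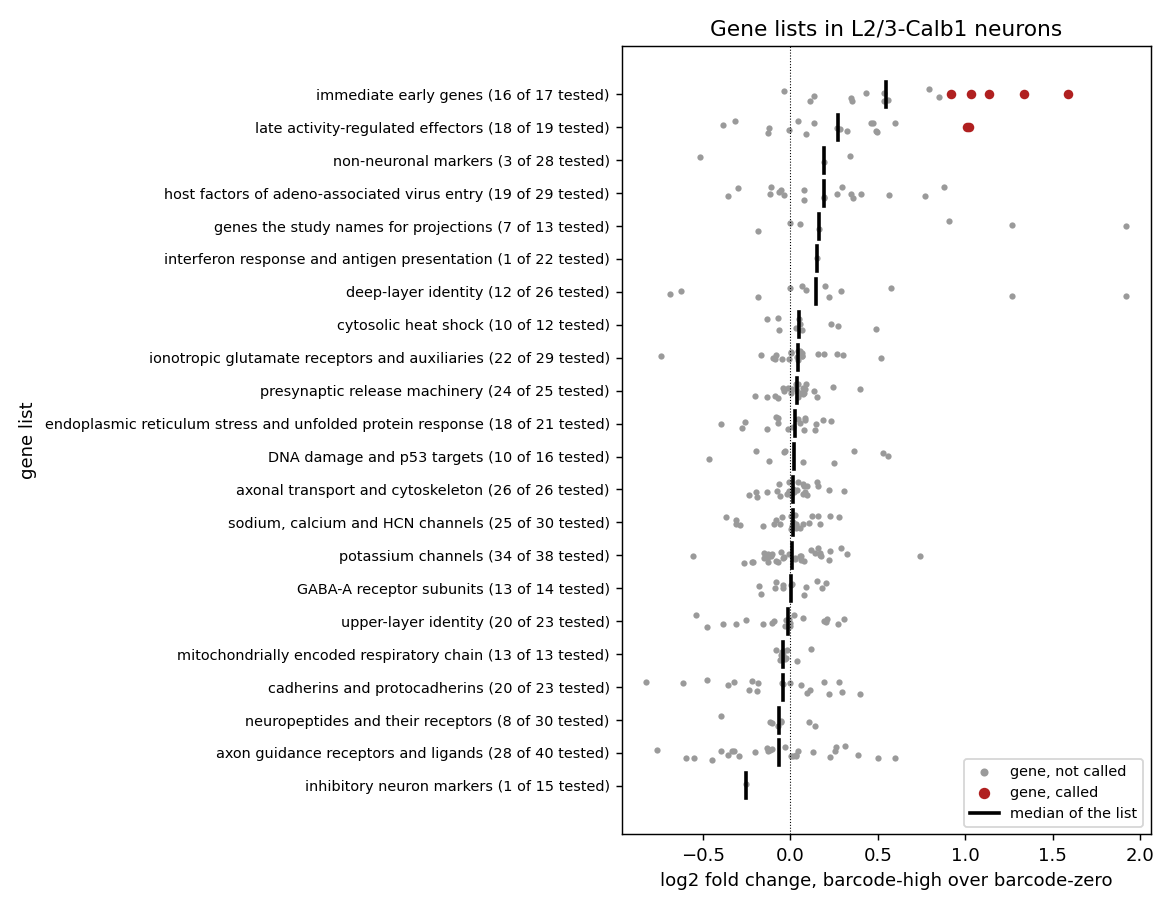
Log2 fold change, barcode-high over barcode-zero L2/3-Calb1, of each tested gene of the gene lists, with a bar at the list's median and called genes in red. The immediate early genes had a median of 0.55 with 5 called and the late effectors 0.27 with 2 called, and the other lists held no called gene.

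Genes that separate L2/3-Calb1 from L2/3-Rorb, the other layer 2/3 subtype, were examined as lists. Lists of 50 genes per direction were drawn from unsorted barcode-low cells, which are in neither class compared. Barcode-low L2/3-Calb1 cells thus helped choose the lists, and the direction of their own values on them was favoured by that choice. Of the 50 genes higher in L2/3-Rorb, 10 passed the filter, which a high level in the barcode-high sums alone can satisfy, and 2 of these were called (Gfra2 and Ier2). The median ratio of the 10 within mice 1, 2 and 3 was 0.00, 0.49 and 1.06 on the log2 scale. Their median log2 fold change in barcode-low cells was -0.34, a direction favoured by the choice of the list. The whole list summed to 475, 826 and 755 CPM in barcode-high and 389, 465 and 518 CPM in barcode-zero cells, which overlapped. All 50 genes higher in L2/3-Calb1 than in L2/3-Rorb were tested, 34 had a lower level, 2 were called lower (Lypd1 and Nnat) and the median was -0.15. Over all tested genes, 4160 of 8340 had a lower level. The sum of the list was 5141, 5040 and 5425 CPM in barcode-high against 6148, 5564 and 5867 CPM in barcode-zero cells, without overlap. It includes Lypd1 and Nnat, called lower on the same cells, and was not taken without them. The median ratio of its members within mice 1, 2 and 3 was -0.12, -0.12 and -0.04 on the log2 scale. Barcode-low cells, on which this list was chosen, had 6463, 6472 and 5463 CPM of it, so these values are no separate comparison.

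The same lists were drawn against L5-S100b, L6-Npy and L6-Syt6. Genes higher in L2/3-Calb1 than in these had medians of -0.09, 0.01 and -0.01 over 49, 45 and 46 tested genes, and Lypd1 was the 1 called gene in each of the lists against L5-S100b and L6-Npy. Of the genes higher in those subtypes 6, 3 and 1 passed the filter, and Gfra2, on the L5-S100b list, was the 1 called. The list higher in L6-Syt6 summed to 42.9, 174 and 108 CPM in barcode-high and 39.4, 42.8 and 123 CPM in barcode-zero cells. Pcp4, a gene of deep-layer neurons, was at 10.7, 232 and 78.3 CPM in barcode-high cells. The sum of the L6-Syt6 list, Pcp4, Foxp2 and Tle4 were thus highest in the barcode-high cells of mouse 2. Other deep-layer genes were not. Fezf2, Syt6 and Bcl11b were highest in the barcode-zero cells of mouse 3, and Bcl11b and Htr2c were lowest in the barcode-high cells of mouse 2. The part of deep-layer transcripts in the results was not tested.

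The effect of barcode class was set against that in L2/3-Rorb and L6-Syt6 neurons, by testing the difference of the log2 fold changes within 1 fit. L2/3-Rorb had 140, 97 and 137 barcode-high and 40, 38 and 33 barcode-zero cells in mice 1, 2 and 3. Of 9379 genes tested, 3 were called different (0.032%): Egr4, Ier2 and Lypd1. In L2/3-Rorb alone 12 of 10046 genes were called (0.119%).

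Egr4 was at 326, 254 and 372 CPM in barcode-high and 246, 282 and 275 CPM in barcode-zero L2/3-Rorb cells. Barcode-zero L2/3-Calb1 cells therefore had a lower Egr4 level than both classes of L2/3-Rorb. The log2 fold change in L2/3-Calb1 exceeded that in L2/3-Rorb (0.25 ± 0.08) by 1.32 ± 0.18 (adjusted p = 7.69e-05). Ier2 was at 202, 144 and 171 against 163, 202 and 278 CPM in L2/3-Rorb, and its difference was 1.61 ± 0.28 (adjusted p = 0.00455). Lypd1 was at 137, 124 and 119 against 91.7, 78.8 and 94.7 CPM in L2/3-Rorb, where its log2 fold change was 0.53 ± 0.11 (adjusted p = 0.00657). Its direction was thus opposite to that in L2/3-Calb1, with a difference of -1.16 ± 0.16 (adjusted p = 7.69e-05).

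Nnat was at 10.9, 11 and 22.6 CPM in barcode-high and 65.8, 5.25 and 26.0 CPM in barcode-zero L2/3-Rorb cells, with a called log2 fold change of -1.18 ± 0.27 there (adjusted p = 0.0205). In mouse 2 the order was reversed, at 11 against 5.25 CPM. Its difference between the subtypes was 0.05 ± 0.37, and leaving out 1 mouse at a time moved it between -0.81 and 0.33. The immediate early list had a median of 0.16 in L2/3-Rorb, with 9 of 17 tested members higher and 0 called. With DESeq2, 2 genes were called different between the subtypes, Lypd1 (adjusted p = 0.00149) and Nrgn (adjusted p = 0.0255), whereas Egr4 and Ier2 had adjusted p of 0.278 and 0.581. In edgeR the difference of Nrgn was 0.49 ± 0.08 (adjusted p = 0.00358), under the limit of 0.5. The barcode-zero L2/3-Rorb sum of mouse 2 held 42.0 CPM of Gad1, against 1.18 and 0 CPM in mice 1 and 3, and without mouse 2 there were 5 called differences and without mouse 3 there were 6. Egr4 and Lypd1 were called in 3 of 3 fits that each left out a mouse, and Ier2 in 2 of 3.

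L6-Syt6, a deep-layer corticothalamic subtype, had 376 to 431 barcode-high and 718 to 766 barcode-zero cells per mouse. Of 12645 genes tested, 88 had a called difference (0.696%), 47 with the higher value in L2/3-Calb1 and 41 with the lower. In L6-Syt6 alone 309 of 13028 genes were called (2.37%). Its sums were larger, so counts of calls cannot be compared between the subtypes. Of the 15 genes called in L2/3-Calb1, 8 had a called difference from L6-Syt6. All 17 immediate early genes had a higher level in barcode-high L6-Syt6 cells, 3 were called and the median was 0.37. Egr4 had a log2 fold change of 0.66 ± 0.02 there, below that in L2/3-Calb1 by 0.90 ± 0.14 (adjusted p = 7.34e-06).

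Nrgn, R3hdm1 and Nrn1 gave the differences of lowest p toward L2/3-Calb1. Nrgn was at 2329, 2149 and 2297 against 2423, 2252 and 2429 CPM in L6-Syt6, and the difference was 0.58 ± 0.06 (adjusted p = 9.15e-12). R3hdm1 differed by 0.75 ± 0.09 (adjusted p = 5.78e-09) and Nrn1 by 0.74 ± 0.09 (adjusted p = 4.78e-08), both with lower levels in barcode-high L6-Syt6 cells (log2 fold changes of -0.23 and -0.25).

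Nnat, Cck and C1ql3 gave those of lowest p in the other direction. Nnat was at 377, 414 and 390 CPM in barcode-high and 267, 260 and 267 CPM in barcode-zero L6-Syt6 cells. It moved up there by 0.60 ± 0.02 and down in L2/3-Calb1, a difference of -1.73 ± 0.13 (adjusted p = 1.09e-15). Cck, a neuropeptide gene, rose in L6-Syt6 from 69.3 to 75.5 CPM in barcode-zero to 124 to 141 CPM in barcode-high cells, whereas it lay at 2312 to 3047 CPM in both classes of L2/3-Calb1. The difference was -0.78 ± 0.06 (adjusted p = 1.09e-15). C1ql3, a secreted synaptic organizer, differed by -1.36 ± 0.11 (adjusted p = 1.10e-14), with a log2 fold change of -0.06 in L2/3-Calb1 and 1.30 in L6-Syt6.

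**Figure D5:**
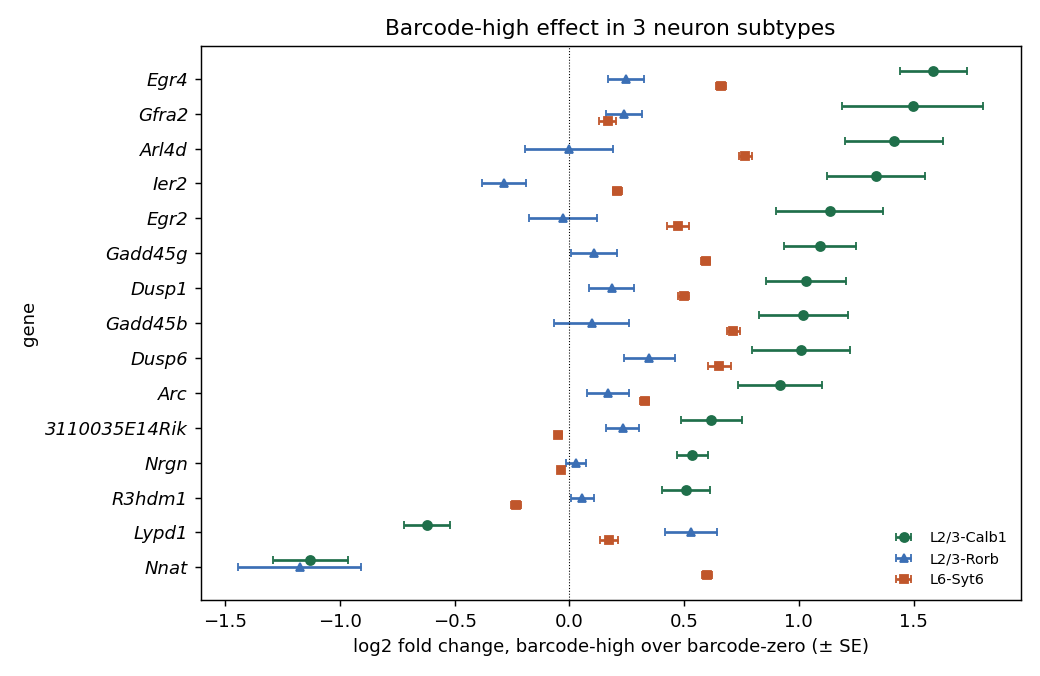
Log2 fold change ± SE, barcode-high over barcode-zero, of called genes in L2/3-Calb1 (circles), L2/3-Rorb (triangles) and L6-Syt6 (squares), each over 3 unsorted mice. Egr4 was at 1.59, 0.25 and 0.66, Nnat at -1.13, -1.18 and 0.60 and Lypd1 at -0.62, 0.53 and 0.17.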

How the data were processed

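Single-cell RNA counts (10x Chromium, polyA capture) of the dissected vmPFC were analysed in 3 unsorted libraries and 1 sorted library. The deposited matrices hold raw UMI counts per gene and cell, which the authors made with Cell Ranger against mm10 and a reference extended by the projection barcodes; Seurat 3.1.4 is named in the submitters' processing notes. The single feature named barcode (0.0319% to 0.0384% of UMIs) was taken as the sum over the 5 barcodes, which was not tested, and was left out of totals and tests. Subtype labels came from the deposited metadata, so the authors' filters on cells apply, doublets were not called again, and barcodes of a given target were not used here.

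Counts were summed per library and barcode class. The 6 sums were tested with edgeR 4.0.16 (R 4.3.3; TMM, filterByExpr, quasi-likelihood F test, library as block) with calls made at an adjusted p under 0.05 where the log2 fold change reached 0.5 in size. Pairing came from the design, since both classes were in the same library. Printed CPM use the sum's total with no scaling factor. Named genes were up to 12 called genes per direction with the same sign in 3 of 3 libraries, with the 5 of lowest p where fewer than 5 were called, the called genes and 3 highest by CPM of each list, and the 3 of lowest p per direction of each difference. The members and the 22 gene lists were chosen with earlier results of these data known. DESeq2 1.42.0, limma 3.58.1 and the other settings of the closing section were run as alternatives, and the scripts were tested on simulated data. Gene positions are GENCODE vM21 (GRCm38).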

Additional observations from a re-analysis of the deposited data

Results flagged for a closer look

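The effect of barcode class in L2/3-Calb1 differed from that in L2/3-Rorb for 3 genes by the test of the difference itself (edgeR). The differences in log2 fold change, L2/3-Calb1 minus L2/3-Rorb, were 1.32 for Egr4, 1.61 for Ier2 and -1.16 for Lypd1. With DESeq2 the differences of Egr4 and Ier2 were not called (adjusted p = 0.278 and 0.581), whereas those of Lypd1 and Nrgn were. Lypd1 fell in barcode-high L2/3-Calb1 cells and rose in barcode-high L2/3-Rorb cells.

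The effect differed from that in L6-Syt6 for 88 genes. By the naming rule these included Nrgn (0.58), R3hdm1 (0.75) and Nrn1 (0.74) with the higher value in L2/3-Calb1. Nnat (-1.73), Cck (-0.78) and C1ql3 (-1.36) had the lower value there. Nnat went in opposite directions in these subtypes, whereas Nrgn, R3hdm1 and Nrn1 each had a lower level in barcode-high than in barcode-zero L6-Syt6 cells.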

How the results depend on the processing

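The 15 called genes became 2 with DESeq2 (42 at an unadjusted p under 0.05), 8 with limma on mean CPM per cell, 6 with barcode-zero cells matched on UMIs, 32 without a filter on low counts and 25 with the sorted library added. They became 42, 6 and 4 with the limit at 10, 3 and 1 UMIs, 7 without cells with non-neuronal UMIs and 3 without the cells highest in immediate early genes, a setting chosen after seeing the data. Leaving out 1 mouse gave 12 to 26. DESeq2 size factors gave 15 and no scaling factor 15, at least 10 counts in every sum 14 and thinning 15, of which 73.3% were higher against 86.7% in the main comparison. With no replicate block 18 genes were called, including all 15. The barcode-low count of 2 became 0 with DESeq2 and 0 to 2 without a mouse. The 3 differences from L2/3-Rorb became 4 to 6 without a mouse and 2 with DESeq2. The 88 differences from L6-Syt6 became 52 to 96 (52 without mouse 1) and 69. Of 269 values of the called genes under alternatives, 176 were still called, 93 kept their direction without a call and 0 reversed. The causes were not tested. Precision is limited by 3 mice and by 25 to 29 barcode-high cells in each.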
